A study of Mus musculus with 18 samples.

Results

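*Scap* deletion in the lung epithelium was followed at PN1, the day of birth, in 6 whole-lung arrays of the *Scap* line, of 18 arrays in the series. Arrays were assigned to the groups by their sample labels. The 3 *Scap* Δ/Δ arrays are called KO16, KO17 and KO18 and the 3 control arrays C13, C14 and C15, after the numbers in their titles. *Scap* Δ/Δ mice carried *Scap* flox/flox with SP-C-rtTA, which places the transactivator under the surfactant protein C promoter in respiratory epithelial cells, and (tetO)7CMV-Cre. Control littermates were *Scap* flox/flox and lacked rtTA or Cre. Dams received doxycycline in the diet in early to mid gestation, and the drug was withdrawn well before birth, so pups of both groups were exposed. The colony was of mixed strain background. The labels give the genotype as Scap-/-, but deletion was limited to respiratory epithelial cells, and the authors describe it as incomplete with these transgenes. RNA came from the whole lung, in which endothelium, mesenchyme and blood cells keep *Scap*, and fewer cells of a type cannot be told apart from less RNA per cell. The 6 E18.5 arrays of the same line, 3 *Scap* Δ/Δ (KO10, KO11, KO12) and 3 controls, are set beside the PN1 values. The methods call the arrays biological replicates, 3 for each condition.

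SCAP escorts the transcription factors SREBP1 and SREBP2 from the endoplasmic reticulum to the Golgi, where proteases release their active part. INSIG proteins hold SCAP back when sterols are plentiful. The active factors bind sterol regulatory elements in genes of cholesterol synthesis, sterol uptake and fatty acid synthesis, often beside a CCAAT box bound by NF-Y. In the lung around birth, type II alveolar cells use these lipids to make surfactant, which is stored in lamellar bodies and secreted to lower surface tension.

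Promoters of the sterol pathway carried these letters unequally. The RefSeq promoters (GRCm38.p6, windows around each gene start) were searched on both strands for TCACNCCAC, the core of the sterol regulatory element, and for CCAAT. The latter was found in 14 of the 14 cholesterol synthesis genes that had a promoter in the table, against 41.1% of all genes with a promoter and 41.4% of those tested on the arrays. TCACNCCAC was found in 1 of the 14, *Hmgcs1*, against 1.44% of all genes with a promoter. Among surfactant and type II cell genes, 1 of 12 held TCACNCCAC, *Abca3*. None of the 18 genes with a promoter in the table that were lower in all 3 deleted arrays did, and 11 of the 18 held CCAAT. The promoters of *Scd1* and *Scd2* were not used here. The following sequences are shown because *Hmgcs1* opens the pathway, *Cyp51* is the only gene of the pathway past 1.5-fold in all 3 deleted arrays, and *Abca3* encodes the surfactant lipid transporter. Capitals mark TCACNCCAC or CCAAT on either strand in the first 2 sequences, and TCACNCCAC in the last.
*Hmgcs1*, chr13:119690101-119690400, + strand: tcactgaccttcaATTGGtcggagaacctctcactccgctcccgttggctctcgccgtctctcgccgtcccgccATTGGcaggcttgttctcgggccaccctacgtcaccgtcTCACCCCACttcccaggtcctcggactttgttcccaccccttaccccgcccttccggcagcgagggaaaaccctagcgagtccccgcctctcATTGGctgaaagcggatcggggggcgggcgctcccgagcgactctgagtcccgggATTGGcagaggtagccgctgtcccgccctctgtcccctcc
*Cyp51*, chr5:4104648-4104947, - strand: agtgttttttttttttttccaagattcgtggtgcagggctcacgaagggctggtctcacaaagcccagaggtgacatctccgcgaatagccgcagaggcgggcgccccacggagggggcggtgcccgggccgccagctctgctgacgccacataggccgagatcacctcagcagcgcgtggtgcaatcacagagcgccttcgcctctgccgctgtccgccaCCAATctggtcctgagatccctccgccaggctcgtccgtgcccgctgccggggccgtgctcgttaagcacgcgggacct
*Abca3*, chr17:24351788-24351816, + strand: tcacgcacgcTCACCCCACcctacaagcg
A match of letters is a description of the promoter and not a measured binding site.

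KO17 and KO18 stood apart from the other arrays before any gene was considered. Over the 22800 probe sets kept by the filter on low values, the median absolute log2 difference was 0.10 between KO17 and KO18, 0.10 between KO16 and C14, and from 0.10 to 0.15 among the controls. It was from 0.32 to 0.41 between KO17 or KO18 and any of the other 4 arrays. The log2 values of KO17 and KO18 also had a narrower spread (SD 2.08 in each) than those of the other 10 *Scap* arrays (2.26 to 2.29), and higher medians (7.67 and 7.70, against 7.43 to 7.48). *Xist*, expressed from the inactive X chromosome of females, was at 11.28 in C13 and 10.61 in KO16 and between 5.97 and 6.53 in the other 4 arrays, while the Y-linked *Eif2s3y* was at 5.28 in C13 and 5.25 in KO16 and between 10.22 and 10.62 in the others. KO17 and KO18 were thus both male and KO16 female by these markers, with 1 female and 2 male controls. The part of sex, array or RNA quality in the difference between KO16 and the other deleted arrays was not tested, and the labels give no batch. Markers of lung were present in every array, with median levels from 10.99 to 11.92 for 17 genes of surfactant and type II cells and from 11.13 to 11.496 for 12 genes of type I cells.

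*Scd1* and *Scd2*, which encode stearoyl-CoA desaturases, fell with *Scap* deletion and were the only 2 genes past an adjusted p of 0.05, with 2 of 22800 probe sets called lower (0.00877%) and none called higher (0%). At an unadjusted p under 0.05, limma gave 4731 probe sets lower (20.8%) and 2632 higher (11.5%). These counts were 7083 and 1799 with each array centred on its median, and 4945 and 5902 with no filter. Every array was therefore also read by itself, as past the limit where it lay outside the range of the 3 controls and at least 1.5-fold (0.58 on the log2 scale) from their mean. All 3 deleted arrays were past this limit in 25 probe sets that were lower (0.11%) and 87 that were higher (0.382%). KO17 and KO18 were past it with KO16 inside the control range in 1191 probe sets that were lower (5.22%) and 1120 that were higher (4.91%). This split depended on scaling and filter, with 2011 lower and 801 higher when each array was centred on its median, and 1201 and 2308 with no filter. Of the 3171 probe sets lower in both KO17 and KO18, KO16 was also past the limit in 25, or 0.788%, and on the same side of the control mean in 36.3%. Of the 2306 higher in both, KO16 was past it in 87, or 3.77%, and on the same side in 43.5%. KO16 was past the limit on the opposite side in 40 probe sets where KO17 and KO18 were lower (0.175%) and in 17 where they were higher (0.0746%). Whatever the other arrays did, KO16 passed the limit in 62 probe sets that were lower and 194 that were higher, against 3826 and 2576 in KO17 and 3917 and 2735 in KO18. Left out in turn, KO16 decided the count of calls: without it limma called 14010 probe sets (5458 higher and 8552 lower), whereas without KO17 or without KO18 it called 1.

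**Figure D1:**
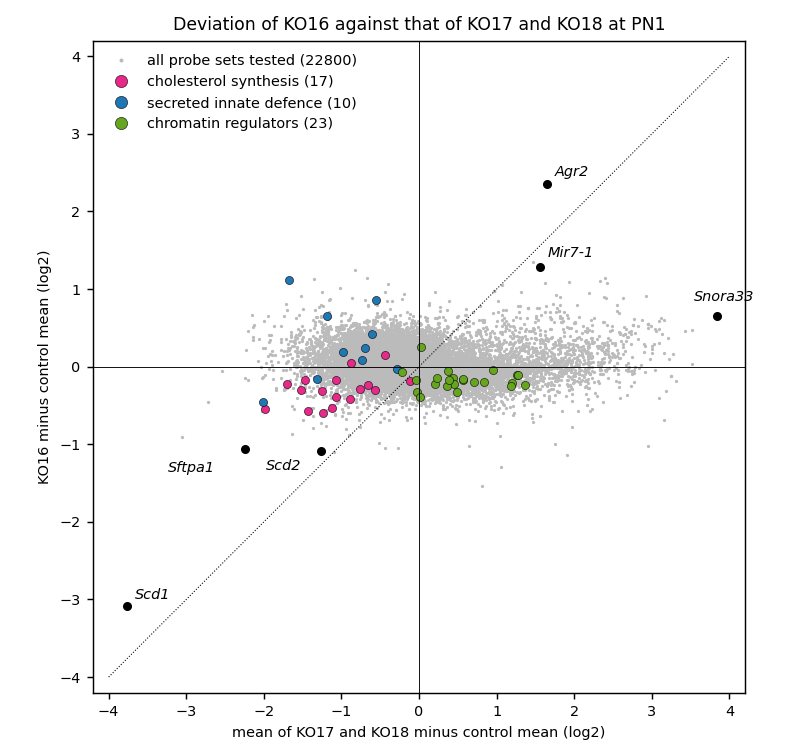
Each point is 1 of 22800 probe sets, with the mean of KO17 and KO18 minus the control mean on the x axis and KO16 minus the control mean on the y axis (log2), and the dotted line marks equal deviations. The cloud lies flat along the x axis, while *Scd1*, *Scd2*, *Sftpa1*, *Agr2* and *Mir7-1* also lie far from 0 on the y axis, and the 17 cholesterol synthesis genes lie mostly below 0 on both axes. Secreted defence genes are blue and chromatin regulators green.

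*Scap* itself was lower in each deleted array than in each control array. Its log2 levels were 9.91, 9.76 and 9.92 in C13, C14 and C15 and 9.54, 9.53 and 9.65 in KO16, KO17 and KO18. The groups did not overlap, and KO16 lay as low as KO17. The difference was -0.29 ± 0.09 (SE, n = 3 against 3), 1.22-fold lower, with an adjusted p of 0.0914 by limma. All probe sets with control levels of 9.77 to 10.35, as that of *Scap*, had median deviations of 0.00 in KO16, -0.35 in KO17 and -0.36 in KO18. The decrease of *Scap* was larger than the median of its level in KO16, but not in KO17 or KO18. At E18.5 the *Scap* difference was -0.41 ± 0.09. The loxP sites lie upstream of exon 1 and in intron 1. How far the probe set, which reads along the transcript, follows the deletion was not tested. The paper reports a marked decrease of *Scap* mRNA in its mice, by array and qPCR.

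The SREBP machinery, taken as a list, had a median below 0 in each deleted array, while its members differed. Over the 6 genes measured, KO16 had a median deviation from the control mean of -0.36, KO17 of -0.37 and KO18 of -0.30, against -0.02, -0.09 and -0.08 over all probe sets. With quantile normalization these list medians were -0.37, -0.20 and -0.17. In the deposited values, the background differed by level. In bins of all probe sets with control levels from 9.245 to 11.21, medians were -0.01 to 0.01 in KO16. They were -0.28 to -0.37 in KO17 and -0.27 to -0.39 in KO18. The list medians of KO17 and KO18 thus lay near those of such bins, and that of KO16 lay below them. All 6 differences were below 0, as were 57.9% of all probe sets, and in 4 of the 6 every deleted array lay below every control array (11% over all). *Srebf2*, the gene of SREBP2, was at 10.59, 10.30 and 10.53 in the controls and at 9.93, 10.06 and 10.13 in KO16, KO17 and KO18. KO16 was the lowest of the 6 arrays for *Srebf2*, and the difference was -0.43 ± 0.11 (adjusted p = 0.0897). *Srebf1*, the gene of SREBP1, differed by -0.30 ± 0.10, also with KO16 the lowest at 8.90. *Insig1*, both a regulator of SCAP and a target of SREBP, was at 11.23, 11.39 and 11.37 in the controls, 10.89 in KO16, 10.45 in KO17 and 10.39 in KO18, a difference of -0.76 ± 0.13 (adjusted p = 0.083). *Insig2* lay inside the control range in KO16 (10.20) and lower in KO17 (9.53) and KO18 (9.62). *Mbtps1*, the gene of the protease that makes the first cleavage of SREBP, differed by -0.02 ± 0.11.

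Fatty acid synthesis genes were led by the desaturases, in which KO16 went with KO17 and KO18. *Scd1* was at 11.90, 11.23 and 11.48 in the controls and at 8.45, 8.004 and 7.55 in KO16, KO17 and KO18. All 3 deleted arrays thus lay far below all 3 controls. The mean was 11.6-fold lower, and the single arrays were 8.52-fold, 11.6-fold and 15.8-fold below the control mean. The difference was -3.54 ± 0.36 (limma, adjusted p = 0.014). *Scd2*, a related desaturase gene, was at 12.47, 12.16 and 12.26 in the controls and at 11.22, 11.06 and 11.005 in KO16, KO17 and KO18. The deleted arrays lay close together, and the difference was -1.21 ± 0.10, or 2.31-fold lower (adjusted p = 0.00473). Both calls were lost when only the 6 PN1 arrays entered the fit (adjusted p = 0.182 for *Scd1* and 0.371 for *Scd2*). *Scd1* also lost its call without C13 (0.136), C15 (0.115), KO17 (0.115) or KO18 (0.101).

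The other genes of fatty acid synthesis showed 2 patterns. *Fasn*, fatty acid synthase, was at 11.16, 10.53 and 10.92 in the controls and was lowest in KO16 (10.17), with 10.45 in KO17 and 10.50 in KO18, a difference of -0.49 ± 0.16. *Acaca*, acetyl-CoA carboxylase, was likewise lowest in KO16 (8.53), but KO17 (9.08) and KO18 (9.02) lay inside the control range of 8.65 to 9.31. *Acly*, ATP citrate lyase, and *Me1*, malic enzyme, instead lay lower in KO17 and KO18: *Me1* was at 10.46 in KO16, 9.37 in KO17 and 9.38 in KO18, against 10.50 to 10.70 in the controls. *Elovl1* differed by -0.63 ± 0.13, *Elovl6* by -0.42 ± 0.10, *Fads1* by -0.58 ± 0.11 and *Fads2* by -0.40 ± 0.11, these being elongases and desaturases of long chains. In 14 of the 20 genes every deleted array lay below every control array (11% over all probe sets), and 16 were lower at an unadjusted p under 0.05 (20.8% over all). KO16 had a list median of -0.20, KO17 of -0.63 and KO18 of -0.68.

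Genes of cholesterol synthesis lay lower in all 3 deleted arrays, and further in KO17 and KO18 than in KO16. The 17 genes measured had a median of -0.30 in KO16, -1.05 in KO17 and -1.10 in KO18, and the 3 control arrays lay between -0.09 and 0.09. All 17 differences were below 0 (57.9% over all probe sets), 15 were lower at an unadjusted p under 0.05 (20.8%), and in 14 every deleted array lay below every control array (11%). None passed the adjusted threshold. *Idi1*, isopentenyl diphosphate isomerase, was at 10.50, 10.96 and 10.79 in the controls, 10.20 in KO16, 8.89 in KO17 and 8.65 in KO18, with a difference of -1.50 ± 0.32 (adjusted p = 0.0897). KO16 lay between the controls and the other deleted arrays in *Idi1*. *Sqle*, squalene epoxidase, was at 10.59, 10.76 and 10.79 in the controls, 10.14 in KO16, 9.36 in KO17 and 9.20 in KO18 (-1.15 ± 0.22). *Cyp51*, lanosterol demethylase, whose promoter is printed above, was past the limit in each deleted array, at 9.01, 8.52 and 8.22 against 9.35, 9.82 and 9.64 in the controls (-1.02 ± 0.18). *Hmgcs1*, the synthase that opens the pathway and held both motifs, was at 10.55 in KO16, 9.86 in KO17 and 9.88 in KO18, against 10.90 to 10.97 in the controls (-0.84 ± 0.16). *Fdps*, *Lss*, *Fdft1*, *Nsdhl* and *Msmo1*, which act along the same route, differed by between -0.73 and -1.21. Among the 4 genes measured for sterol uptake and transport, *Stard4*, a cholesterol carrier, differed by -0.90 ± 0.15 and *Mylip*, which marks the LDL receptor for degradation, by -0.79 ± 0.14. *Mylip* was past the limit in all 3 deleted arrays.

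**Figure D2:**
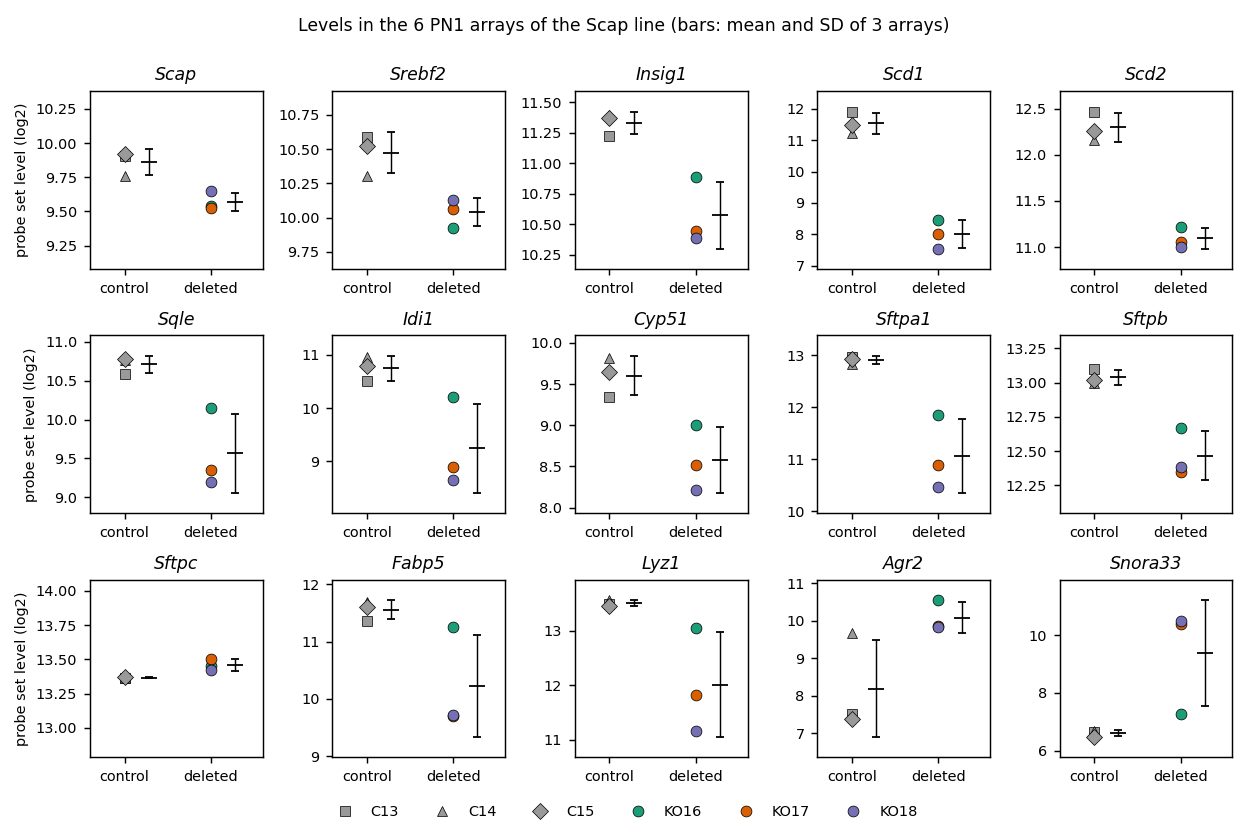
Log2 levels of 15 genes in the 6 PN1 arrays, with grey squares, triangles and diamonds for C13, C14 and C15, coloured circles for KO16, KO17 and KO18, and bars for the mean and SD of 3 arrays. In *Scap*, *Srebf2*, *Scd1* and *Scd2* the 3 deleted arrays lie together below the controls, in *Sqle*, *Idi1*, *Sftpa1* and *Sftpb* KO16 lies between the controls and the other deleted arrays, and in *Fabp5* and *Snora33* KO16 lies nearer to the controls.

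Surfactant genes split by member. *Sftpa1*, surfactant protein A, was lower in all 3 deleted arrays: it was at 12.98, 12.83 and 12.94 in the controls, 11.85 in KO16, 10.89 in KO17 and 10.47 in KO18, a difference of -1.85 ± 0.34, or 3.6-fold (adjusted p = 0.083). *Sftpb*, needed for the surface film, was at 13.10, 12.996 and 13.02 in the controls and at 12.67, 12.35 and 12.38 in the deleted arrays (-0.57 ± 0.09, adjusted p = 0.0792). *Sftpc* was at 13.36 to 13.37 in the controls and 13.42 to 13.50 in the deleted arrays, a difference of 0.09 ± 0.06 that turned to -0.03 with quantile normalization and to -0.04 with each array centred on its median. *Sftpd* differed by -0.20 ± 0.13. The groups overlapped in *Sftpd*, while every deleted array lay below every control array in 10 of the 17 genes of surfactant and type II cells, against 11% of all probe sets. *Abca3*, the lamellar body lipid transporter whose promoter holds TCACNCCAC, was lowest in KO16 (10.18), with 10.23 in KO17 and 10.28 in KO18, against 10.39 to 10.90 in the controls (-0.39 ± 0.13). *Hc*, complement C5, was also lowest in KO16 (9.52, against 10.20 and 10.06 in KO17 and KO18). *Fabp5*, a fatty acid binding protein, *Egfl6* and *Rab27a*, a GTPase of secretion, lay far lower in KO17 and KO18, with *Fabp5* at 11.26 in KO16, 9.70 in KO17 and 9.73 in KO18 against 11.37 to 11.69 in the controls. *Lpcat1*, which remodels phosphatidylcholine into its surfactant form, was at 12.42, 12.29 and 12.26 in the controls and 11.91, 11.57 and 11.54 in the deleted arrays (-0.65 ± 0.10). Over the surfactant and type II cell list the median deviations were -0.19 (KO16), -0.46 (KO17) and -0.55 (KO18), and none of its genes passed the adjusted threshold.

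Genes that were lower in all 3 deleted arrays beside those of lipid synthesis and surfactant had varied known roles. The class held 22 named genes. *Pon1*, a paraoxonase known from serum lipoproteins, was at 11.20, 11.35 and 11.05 in the controls, 10.29 in KO16, 8.08 in KO17 and 8.21 in KO18 (-2.34 ± 0.58). *Acoxl*, an acyl-CoA oxidase-like gene, was as low in KO16 as in the others, at 7.31, 7.38 and 7.26 against 8.16 to 8.67 in the controls. *Kcnj2*, a potassium channel gene, differed by -1.38 ± 0.24 and *Nipal1*, a magnesium transporter gene, by -1.17 ± 0.17. *Nxpe2* (-0.90 ± 0.36), *Gkn3* (-0.76 ± 0.24) and *Slc4a1* (-0.75 ± 0.17), the band 3 gene of red cells, completed the 10 with the largest smallest deviation. Of the controls, C13 was the highest for each of these last 3 genes. *Slc4a1* stood with the erythroid list, of which 8 of 9 genes measured were below 0 (57.9% over all probe sets) and 5 had every deleted array below every control array (11%). *Ppp1r3c*, *Chad*, *Mfsd2a* and the interferon-induced *Rsad2* and *Oasl2* also belonged to the class. *Rsad2* was at 9.76, 9.52 and 9.07 in the controls and at 8.86, 8.31 and 8.77 in KO16, KO17 and KO18, so that KO16 lay near the lowest control.

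*Agr2*, a disulfide isomerase of mucous and secretory cells, was the protein-coding gene with the largest shared increase in level. It was at 10.55 in KO16, 9.85 in KO17 and 9.83 in KO18, against 7.50 in C13, 9.68 in C14 and 7.39 in C15. C14 thus lay just below the lowest deleted array, and the difference was 1.89 ± 0.51 (adjusted p = 0.0901). C14 and KO16 were also the highest arrays for *Scgb3a1* (12.48 and 11.96, against 9.10 to 10.41 in the other 4) and for *Reg3g* (10.88 and 10.03, against 6.58 to 8.28), secretory genes of the airway, in which the deleted and control groups overlapped. At E18.5, *Agr2* was higher in all 3 deleted arrays, 1.91, 2.66 and 2.29 above the control mean in KO10, KO11 and KO12.

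Small RNA genes made up most of the named genes of the shared higher class. Of its 87 probe sets, 64 carried no gene symbol or several, 9 read small nucleolar RNAs and 11 read protein-coding genes. The 15 named genes included *Snora33*, *Snora73b*, *Snora21*, *Snora3* and *Snord16a*, which guide chemical modification or processing of ribosomal RNA, *Rnu3a*, the U3 RNA, *Rny1*, a Y RNA, and *Mir7-1*. *Snora33* was at 6.65, 6.68 and 6.47 in the controls, 7.25 in KO16, 10.38 in KO17 and 10.50 in KO18. *Rnu3a* was at 7.28, 8.32 and 7.81 in the controls and 9.16, 9.42 and 9.12 in the deleted arrays, and here KO16 lay among the others (1.43 ± 0.24). *Mir7-1* was at 8.77, 9.09 and 8.99 in the controls and at 10.24, 10.71 and 10.32 in the deleted arrays (1.47 ± 0.20, adjusted p = 0.0708). *Vstm2b* (0.87 ± 0.12) and *Naaladl2* were the other protein-coding genes in this class beside *Agr2*, *Atp5l* and *Taf1d*. The 4 probe sets of *Taf1d* held identical values, and *Atp5l* also had 4.

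The 42 small nucleolar RNA probe sets had a median deviation of 0.39 in KO16, 1.22 in KO17 and 1.13 in KO18, and of 0.09, 0.49 and 0.60 in KO10, KO11 and KO12 at E18.5. In 36 of them every deleted PN1 array lay above every control array, as in 5.59% of all probe sets. The 104 probe sets of miRNA genes lay higher only in KO17 (0.61) and KO18 (0.64), with -0.08 in KO16, and 21 of them (20.2%) were in the higher class of KO17 and KO18 only, against 4.91% of all probe sets. For 15797 probe sets of protein-coding genes the medians were -0.03, -0.18 and -0.16. These classes were formed after the values were seen, from the RefSeq gene table. Many small nucleolar RNAs and miRNAs lie within introns of other genes, and a probe set for their locus reads the locus, not the mature RNA. The mature miRNAs of *Mir7-1*, higher in all 3 deleted arrays, and *Mir505*, higher in KO17 and KO18 alone, are printed to identify the loci, with the seed (bases 2 to 8) in capitals. They share no seed.
mmu-miR-7a-5p, chr13:58392841-58392863, - strand: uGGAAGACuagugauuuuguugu
mmu-miR-7a-1-3p, chr13:58392800-58392821, - strand: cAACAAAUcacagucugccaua
mmu-miR-505-5p, chrX:60394451-60394473, - strand: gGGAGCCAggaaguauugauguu
mmu-miR-505-3p, chrX:60394416-60394437, - strand: cGUCAACAcuugcugguuuucu

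**Figure D3:**
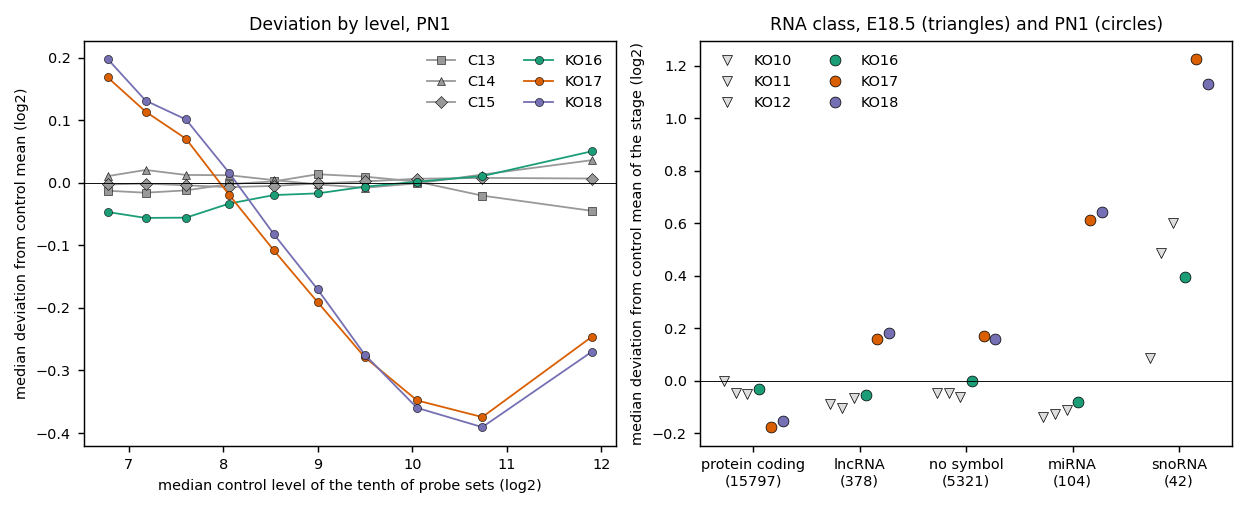
Left, the median deviation from the control mean (log2) in each PN1 array for 10 bins of probe sets ordered by mean control level, which is drawn at the median of each bin. Right, the median deviation by RNA class in the deleted arrays of E18.5 (triangles) and PN1 (circles), with the number of probe sets in brackets. KO17 and KO18 run from 0.17 and 0.20 in the lowest bin to -0.37 and -0.39 in the ninth, while KO16 and the controls stay within 0.06 of 0.

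The values of KO17 and KO18 differed by level and, for the longest genes, by gene span. By mean control level, the median deviation went from 0.17 in KO17 and 0.20 in KO18 in the lowest of 10 bins to -0.37 and -0.39 in bin 9, and was -0.25 and -0.27 in the highest. KO16 went from -0.05 in the lowest to 0.05 in the highest. Among 14397 protein-coding genes split into 4 bins by genomic span, the 3599 longest (at least 55.4 kb) had a median of -0.03 in KO17 and 0.00 in KO18, against -0.23 and -0.21 in the 3601 shortest. The bins between them lay at -0.29 and -0.26 in KO17 and -0.27 and -0.24 in KO18, so only the longest stood apart. In KO16 the longest lay lower than the shortest, with -0.08 in the longest and 0.00 in the shortest. The controls were spread as widely, with -0.07 in the longest and 0.06 in the shortest in C14, and 0.08 and -0.05 in C13. The part of level and span in the gene results was not tested. After quantile normalization, which gives all arrays 1 distribution of values, the cholesterol list stood at -0.32 in KO16, -0.91 in KO17 and -1.06 in KO18 and no list median over the 3 deleted arrays changed sign. With each array centred on its median, 4 of 46 lists did, namely mesothelium, glucocorticoid response, integrins and laminins, and cytosolic ribosomal proteins.

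What KO17 and KO18 showed without KO16 was broad. The 6 named genes with the largest decrease in level in this class were *Atp6v0d2* (a proton pump subunit), *Thap2*, *Ly96* (the partner of the endotoxin receptor), *Ptgr2* (a prostaglandin reductase), *Ttll1* and *Usp18* (an interferon-induced protease). *Ly96* was at 9.70, 9.998 and 9.90 in the controls and 9.86 in KO16, and at 7.96 in KO17 and 7.69 in KO18. KO16 lay amid the controls for all 6 genes, as the rule required, and KO17 and KO18 were from 3.64-fold to 4.55-fold below the control mean. The 6 with the largest increase were *Phxr4*, *Mir505*, *Mir145a*, *Kansl1*, *Hmcn1* and 6330407A03Rik, from 4.65-fold to 9.21-fold above it in KO17 and KO18. *Kansl1*, a chromatin acetyltransferase subunit, was at 7.64, 7.17 and 7.34 in the controls and 7.50 in KO16, and at 9.85 in KO17 and 10.11 in KO18. *Hmcn1*, a large matrix protein, was at 8.81 in KO16 and 11.13 and 11.23 in KO17 and KO18, against 8.33 to 9.31 in the controls.

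Secreted defence genes had a median below 0 in KO17 and KO18 and above 0 in KO16. The 10 genes measured had a median of -0.88 in both, and 0.21 in KO16, with the controls from -0.26 in C13 to 0.24 in C14. *Lyz1*, lysozyme of type II cells in the mouse, was at 13.50, 13.56 and 13.46 in the controls, 13.05 in KO16, 11.82 in KO17 and 11.16 in KO18 (-1.49 ± 0.44, adjusted p = 0.0914). *Lcn2*, which binds bacterial siderophores, was at 12.20 in KO16, 11.08 in KO17 and 11.01 in KO18, against 12.17 to 12.48 in the controls. KO16 lay inside the control range for *Lcn2* and below it for *Lyz1*.

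Markers of macrophages and interferon-induced genes were lower in the same arrays. The 16 macrophage and monocyte genes had a median of -0.03 in KO16, -0.79 in KO17 and -0.67 in KO18, and the 12 interferon-induced genes of -0.10, -0.69 and -0.66. *C1qb*, a complement subunit made by macrophages, was at 10.14, 10.25 and 10.04 in the controls and 10.04 in KO16, and at 8.80 in KO17 and 8.96 in KO18 (-0.87 ± 0.26). *Cd14*, an endotoxin receptor of the same cells, was at 8.61 in KO16, 7.55 in KO17 and 7.40 in KO18, against 8.52 to 8.80 in the controls. *Lyz2*, a lysozyme gene on the list, was at 12.89 in KO16, level with the lowest control, and at 12.19 in KO17 and 12.13 in KO18. Which cells of the whole lung its RNA came from was not tested. The median level of the whole macrophage list was 8.98 to 9.05 in the controls, 9.12 in KO16, 8.12 in KO17 and 8.14 in KO18, and the part of macrophage number in the other gene groups was not tested. *Marco*, a scavenger receptor of mature alveolar macrophages, was between 7.08 and 7.26 in all 6 arrays. This is below the median of each of these arrays (7.46 to 7.70), so that little can be read from its even level.

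Regulators of the epithelium had a list median further below 0 in KO17 and KO18 than in KO16, with many members lower in all 3. For 17 transcription factor genes of the lung epithelium KO16 had a median of -0.10, KO17 of -0.47 and KO18 of -0.49. In 8 of the 17 every deleted array, KO16 included, lay below every control array (11% over all probe sets). In 1 every deleted array lay above every control array (5.59% over all). *Cebpa*, which drives type II maturation genes, was at 9.43, 9.32 and 9.18 in the controls, 8.97 in KO16, 8.20 in KO17 and 8.26 in KO18 (-0.83 ± 0.18, adjusted p = 0.0885). *Sox9*, a factor of distal progenitors, was at 8.79, 8.46 and 8.20 in the deleted arrays, against 9.23 to 9.33 in the controls (-0.79 ± 0.16). *Cebpd* went the other way, at 8.79 in KO16, 8.47 in KO17 and 8.80 in KO18 against 8.03 to 8.20 in the controls (0.56 ± 0.12). Every deleted array lay outside the control range in all 3 of these genes. General epithelial markers had a median of 0.05 in KO16, -0.33 in KO17 and -0.42 in KO18, and type I cell markers of -0.06, -0.24 and -0.22. All probe sets with control levels of at least 11.21 had medians of 0.05, -0.25 and -0.27. With quantile normalization the type I list stood at -0.11, -0.10 and -0.09, so that KO16 no longer differed from the others. General epithelial markers then stood at 0.01, -0.25 and -0.27.

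Genes of vesicle traffic and of endoplasmic reticulum stress had medians below 0 in KO17 and KO18 but not in KO16. The 24 genes of vesicle traffic had a median of 0.02 in KO16, -0.42 in KO17 and -0.51 in KO18, with *Scamp2* at -0.83 ± 0.21 and *Stx12* at -0.86 ± 0.25. In 5 of the 24 every deleted array, KO16 included, lay below every control array (11% over all probe sets). The 22 genes of endoplasmic reticulum stress had medians of 0.06, -0.50 and -0.31, and *Asns*, asparagine synthetase, was at 10.61 in KO16, 9.17 in KO17 and 9.22 in KO18 against 10.22 to 10.65 in the controls.

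Respiratory chain, proteasome and DNA replication genes had medians above 0 in KO16 and below 0 in KO17 and KO18. The 48 respiratory chain genes had a median of 0.21 in KO16, -0.37 in KO17 and -0.36 in KO18, the 30 proteasome genes of 0.26, -0.38 and -0.41, and the 24 genes of DNA replication and mitosis of 0.23, -0.53 and -0.49. The control arrays of the first 2 lists were themselves spread from -0.18 to 0.15. The 31 cytosolic ribosomal protein genes had medians of 0.13 in KO16, -0.01 in KO17 and 0.00 in KO18. The 23 chromatin regulators stood at 0.46 in both KO17 and KO18, and KO16 (-0.17) lay inside the range of the controls, from -0.30 in C14 to 0.31 in C13. *Kmt2a*, a histone methyltransferase, was at 9.505, 8.74 and 9.07 in the controls, 8.86 in KO16, 10.45 in KO17 and 10.48 in KO18 (0.83 ± 0.38, adjusted p = 0.154). The 23 splicing factors had medians of -0.02, 0.42 and 0.39 with the controls from -0.05 to 0.05, and *Luc7l2* was at 10.01 in KO16, 11.12 in KO17 and 11.23 in KO18 against 9.92 to 10.19 in the controls. *Per1*, of the circadian clock and a glucocorticoid target, was at 9.66, 10.81 and 11.13 in KO16, KO17 and KO18, against 8.85 to 9.66 in the controls (1.22 ± 0.32). *Zbtb16*, also a glucocorticoid target, was high in KO18 alone (11.30, against 8.002 to 9.20 in the other 5 arrays). The whole list of 17 glucocorticoid receptor and response genes had medians of -0.07 in KO16, 0.01 in KO17 and -0.02 in KO18. None of these genes passed the adjusted threshold.

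**Figure D4:**
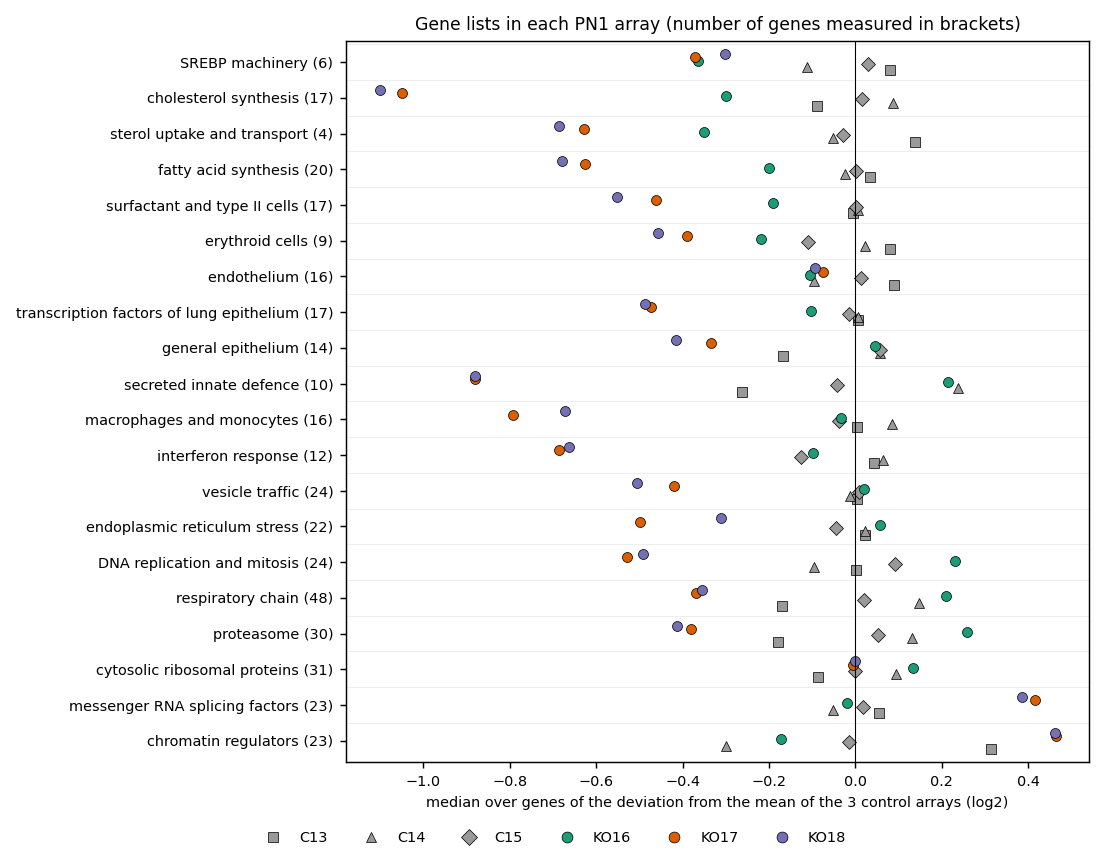
The median deviation from the mean of the 3 control arrays (log2, x axis) over the genes of 20 lists, in each of the 6 PN1 arrays (grey, controls; green, KO16; orange, KO17; purple, KO18). KO16 lies with KO17 and KO18 for the SREBP machinery, between them and the controls for cholesterol and fatty acid synthesis, and with or beyond C14 on the other side of 0 for the respiratory chain and the proteasome.

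Lists of cells that do not express the transgene varied to different degrees. The macrophage list, given above, lay at -0.79 in KO17 and -0.67 in KO18. The erythroid list lay at -0.22 in KO16, -0.39 in KO17 and -0.46 in KO18. The 16 endothelial genes had medians of -0.10, -0.08 and -0.09 in KO16, KO17 and KO18, with C14 at -0.10 and C13 at 0.09, although *Sox18* was at 10.70, 10.19 and 9.94 against 10.92 to 11.10. These medians depended on scaling, and with quantile normalization they were -0.18, 0.08 and 0.04 in KO16, KO17 and KO18. Cardiac muscle genes, a sign of heart tissue in the sample, had medians of -0.19 in KO16, -0.43 in KO17 and 0.07 in KO18. Of the genes chosen as absent from lung, 3 of 9 with a probe set were under the filter, and *Cpa1*, carboxypeptidase A1, was well measured at 10.58, 10.08 and 10.01 in the controls, 9.84 in KO16, 8.78 in KO17 and 8.94 in KO18.

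KO16 lay near the median difference at E18.5 in some lists and away from it in others. For cholesterol synthesis the E18.5 arrays had a median difference of -0.26, with -0.30 in KO16 and -1.05 and -1.10 in KO17 and KO18. For the respiratory chain the E18.5 median was 0.22 and KO16 lay at 0.21, with 0.02, 0.27 and 0.35 in KO10, KO11 and KO12. For secreted defence the values were 0.23 and 0.21, with 0.01, 0.34 and 0.41 in KO10, KO11 and KO12. The PN1 control C14 lay at 0.15 for the respiratory chain and 0.24 for secreted defence. For macrophages and monocytes the E18.5 median was 0.15 and KO16 lay at -0.03, and for the SREBP machinery they were -0.50 and -0.36. *Scd1* lay at -3.08, -3.23 and -1.72 from the E18.5 control mean in KO10, KO11 and KO12, and at -3.09 from the PN1 control mean in KO16. *Scd2* differed by -0.54 ± 0.10 at E18.5 and by -1.21 ± 0.10 at PN1, and the difference between these effects was -0.67 ± 0.15 (limma, adjusted p = 0.265). At E18.5 all 3 deleted arrays were past the limit in 5 probe sets that were lower (0.0219%) and 25 that were higher (0.11%). Of the 22 named probe sets lower in all 3 at PN1, 19 were below 0 at E18.5, as were 58.3% of all probe sets. All 23 named probe sets higher in all 3 at PN1 were above 0 at E18.5, as was a minority of all probe sets. These 23 read only 15 genes, with several probe sets each for *Taf1d*, *Atp5l*, *Snora3* and *Snora21*, so they are not independent. The stages had separate controls. No probe set differed between the PN1 and E18.5 effects at an adjusted p under 0.05 by limma (0%), with 1880 higher and 2301 lower at an unadjusted p under 0.05, and without KO16 the same test called 13219.

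**Figure D5:**
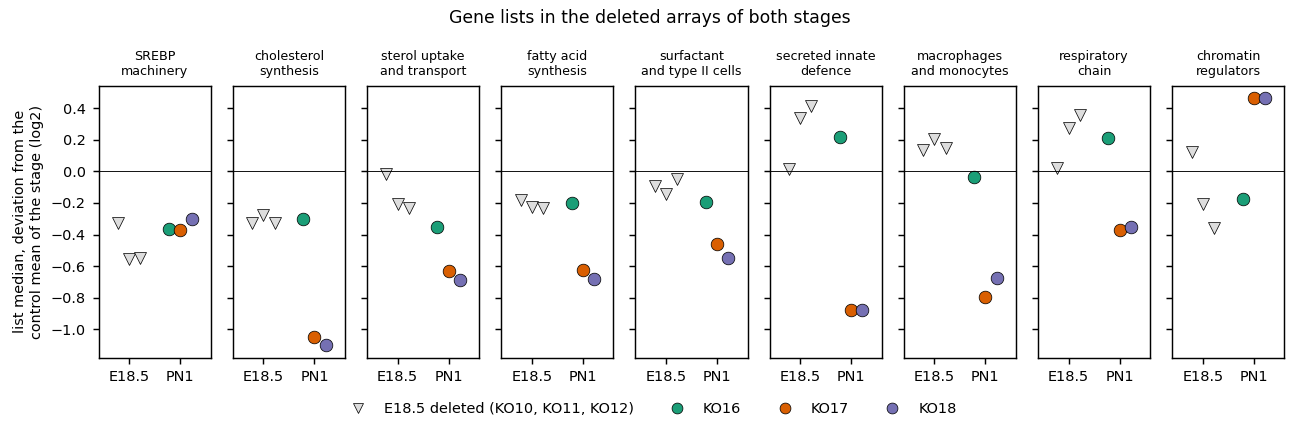
Medians of 9 gene lists (log2 deviation from the control mean of the same stage, y axis) in the 3 deleted arrays of E18.5 (triangles) and in KO16, KO17 and KO18 at PN1 (circles). For cholesterol and fatty acid synthesis KO16 lies near the E18.5 arrays and KO17 and KO18 lie below them. For secreted defence and the respiratory chain the E18.5 arrays are spread, KO16 lies within their range, and KO17 and KO18 lie below it. The SREBP machinery is below 0 in all 6.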

How the data were processed

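Levels were measured on Affymetrix Mouse Gene ST arrays from total RNA of whole lung. The authors deposited log2 expression values, 1 per probe set and array, and analysed them in GeneSpring. The summarization and normalization behind these values are not given in the sources used here. The table held 35556 probe sets with values from 3.09 to 14.05, of which 21789 had 1 gene symbol, 1621 several and 12146 none. Probe sets at or above the 35th percentile of an array in at least 66% of the 12 *Scap* arrays were kept (22800). Group means of these 12 arrays were fitted with limma 3.58.1 in R 4.3.3 (lmFit, eBayes), with Benjamini-Hochberg adjustment over all probe sets kept, and ± gives the standard error of the difference. The fit was tested on simulated data with independent noise in each value, in which no array stood apart as a whole. That test cannot show how the fit behaves with arrays such as KO16, KO17 and KO18. Gene lists have 1 probe set per gene, the one with the highest mean, and no test. The number of arrays, 3 a group, limits the precision.

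Members, gene lists and the rule for named genes were chosen with earlier results of these data known. Named are *Scap*, genes past an adjusted p of 0.05, the 10 lower and 10 higher genes shared by the 3 deleted arrays with the largest smallest deviation, 6 lower and 6 higher genes of KO17 and KO18 only, and members of each list with the largest deviations. Genes named outside this rule, *Marco* and *Mbtps1* among them, were chosen after their values were seen. Alternatives were other filters, normalizations, spread estimates, array weights and leaving out each array. Probe annotation came from the platform table, symbols and coordinates from RefSeq (GRCm38.p6, 21698 probe sets matched), and promoters and miRNAs from RefSeq tables of that build.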

Additional observations from a re-analysis of the deposited data

How the results depend on the processing

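No paired analysis was possible because the replicate numbers of the PN1 arrays (13 to 18) are not shared between groups. The count of 2 probe sets past an adjusted p of 0.05 at PN1 was 18 with no filter (11 higher and 7 lower), 8 with 1 mean per gene (2 higher and 6 lower), 0 with only the 6 PN1 arrays (limma, 1204 higher and 1718 lower at an unadjusted p under 0.05), 0 with the methods' unmoderated test (584 and 1131 unadjusted) and 15526 with array weights (6108 higher and 9418 lower), which gave KO16 a weight of 0.0489 and KO17 one of 10.05. Leaving out 1 array gave 1 to 14010, the highest without KO16, 4 without C14 and 1 without C13, C15, KO17 or KO18. The count of effects that differed between stages, 0, was 14685 with array weights and ran from 0 to 13219 when 1 array was left out. Probe sets past the limit in all 3 deleted arrays numbered 112, and 329 with no filter, 63 with the 50th percentile filter, 12 with a 2-fold limit and 3789 with no size limit. Those of KO17 and KO18 only numbered 2311, and 3509 with no filter, 2812 when centred (2011 lower and 801 higher) and 886 with a 2-fold limit (279 lower and 607 higher). Centring each array on its median moved the median over all probe sets from -0.06 to -0.19 and quantile normalization to -0.10. The SREBP machinery median of -0.35 became -0.49 when centred, -0.28 with quantile normalization and from -0.37 to -0.31 when 1 array was left out. Small or variable differences changed sign: *Mbtps1* (0.10 with quantile normalization, -0.087 to 0.070 leaving out 1 array), *Acaca* (0.13 with array weights, -0.30 to 0.047), *Sftpc* (-0.035 with quantile normalization, -0.042 centred), *Reg3g* (-1.68 to 0.23) and *Scgb3a1* (-1.25 to 0.23). Of 1536 gene values under alternatives, 1325 kept their direction and side of the threshold and 191 newly passed it, 187 of them with array weights or without KO16. The cause was not tested.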
